A study of Mus musculus with 8 samples.

Results

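Neuregulin, ErbB and ephrin signalling was described in the embryonic ventricle by 8 genes: the ligands Nrg1 and Hbegf, the ErbB receptors Egfr, Erbb2, Erbb3 and Erbb4, and the ephrin ligand and Eph receptor pair Efnb2 and Ephb4. They were chosen by name, as signals between endocardium and myocardium during trabeculation, out of 55291 gene symbols in the count table. All 8 were among the 26820 symbols that had enough counts to be tested. RNA was sequenced from mouse ventricular tissue at E10.5, with 4 libraries from cKO embryos (Pkn2 fl/fl, XMLC2-Cre positive) and 4 from control littermates (Pkn2 fl/fl, Cre negative). Both groups carried the floxed Pkn2 allele on a C57BL/6N background (the strain label reads C57BL/6), so they differed in the Cre transgene as well as in Pkn2. XMLC2-Cre acts in cardiomyocytes, and Pkn2 of endocardial and other cells was not its target. Each library is labelled a biological replicate, and the study's methods give the animal or embryo as the experimental unit unless stated otherwise.

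In the developing ventricle, endocardial cells line the lumen and release or display ligands that the adjoining myocardium reads. Neuregulin from the endocardium binds ErbB4 or ErbB3 on the receiving cell, and the ligand-bound receptor pairs with ErbB2, which has no ligand of its own. This signal is needed for trabeculae, the muscular ridges that grow into the ventricular lumen. Ephrin-B2 and EphB4 are a membrane-bound ligand and its receptor on neighbouring cells, known as marks of arterial and venous endothelium, and ephrin-B2 in the endocardium is also needed for trabeculation.

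Nrg1 is the member on which the results below turn, and its EGF-like domain is the stretch that binds ErbB3 and ErbB4. The coding sequence of that domain was read from the GENCODE vM39 transcripts (GRCm39, minus strand), with the 6 cysteine codons in capitals. It took 2 forms over the 30 coding Nrg1 transcripts of that annotation. The first, in 22 transcripts, spans 2 exons at chr8:32327726-32339426, and the second, in 8 transcripts, spans 2 exons at chr8:32328326-32339426. They share their first 94 of 120 bases and then take different last exons.
Nrg1 EGF-like variant 1: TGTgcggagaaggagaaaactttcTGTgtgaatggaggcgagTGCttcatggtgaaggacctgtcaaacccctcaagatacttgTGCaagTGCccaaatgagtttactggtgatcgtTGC
Nrg1 EGF-like variant 2: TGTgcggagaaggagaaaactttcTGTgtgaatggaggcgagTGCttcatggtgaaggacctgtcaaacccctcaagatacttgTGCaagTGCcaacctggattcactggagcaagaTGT
The deposited counts are per gene, so the Nrg1 values below sum over both forms and do not say which of them was present.

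The libraries held 47559845 to 56660938 counts each. Pkn2 itself had 77.6 to 84.3 CPM (counts over library sizes that the TMM method of edgeR made comparable) in the cKO libraries and 133 to 153 CPM in the control libraries. Its log2 fold change was −0.83 (SE 0.0599, edgeR adjusted p = 7.67e-06), so each library went with its label. The tissue label was checked against marker lists: all 22 cardiomyocyte markers were detected, with Actc1, the cardiac actin, at a mean of 11877 CPM in cKO and 12318 CPM in control. All 29 endothelial and endocardial markers were detected too, among them Npr3, an endocardial receptor, at 277 and 255 CPM. None of the 8 members is in either marker list.

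Nrg1 was the member with the clearest difference. It was measured at 30.1, 29.0, 26.4 and 21.4 CPM in cKO libraries 1 to 4 and at 18.3, 20.1, 16.5 and 19.6 CPM in control libraries 1 to 4. The lowest cKO value exceeded the highest control value, and cKO 4 was nearest to the controls. The means were 26.7 ± 3.89 CPM (SD, n = 4) and 18.6 ± 1.63 CPM, a level 43.5% higher in cKO. The log2 fold change was 0.52 (SE 0.0998) with an edgeR quasi-likelihood adjusted p of 0.0218 over all genes tested. The exact two-sided permutation test on the CPM values alone gave p = 0.0286, the smallest that 4 against 4 allows. In bulk tissue, a change in the number of cells of a type and a change in RNA per cell cannot be told apart, for this gene and those that follow.

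The call of Nrg1 rested on single libraries. Without cKO 1 the edgeR adjusted p of Nrg1 was 0.0762, without control 1 it was 0.0821, without control 3 it was 0.0788 and without control 4 it was 0.0598. Without cKO 4, the lowest of the cKO libraries, the log2 fold change was 0.62 and the adjusted p 0.0021. The log2 fold change stayed between 0.46 and 0.62 in all 8 such fits, and 4 of the 8 kept the adjusted p at or under 0.05. Over all alternatives run, the adjusted p lay between 0.00019 (no filter on low counts) and 0.264 (limma on TPM).

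Of the 8 members, Nrg1 alone passed the edgeR threshold of an adjusted p of 0.05, and it was higher in cKO. Over all genes tested, 0.858% passed this threshold, 0.515% higher and 0.343% lower in cKO. DESeq2 called 3 members, Nrg1, Erbb2 and Erbb3, where it called 5.46% of the 15891 genes it gave an adjusted p. The cKO libraries all lay above the control libraries for 2 members, Nrg1 and Erbb3, against 3.14% of all genes tested. They all lay below them for Erbb2 only, against 3.77% of all genes. The fold change was above 0 for 7 of the 8 members, with a median log2 value of 0.12, where the median of all genes tested was −0.00.

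**Figure D1:**
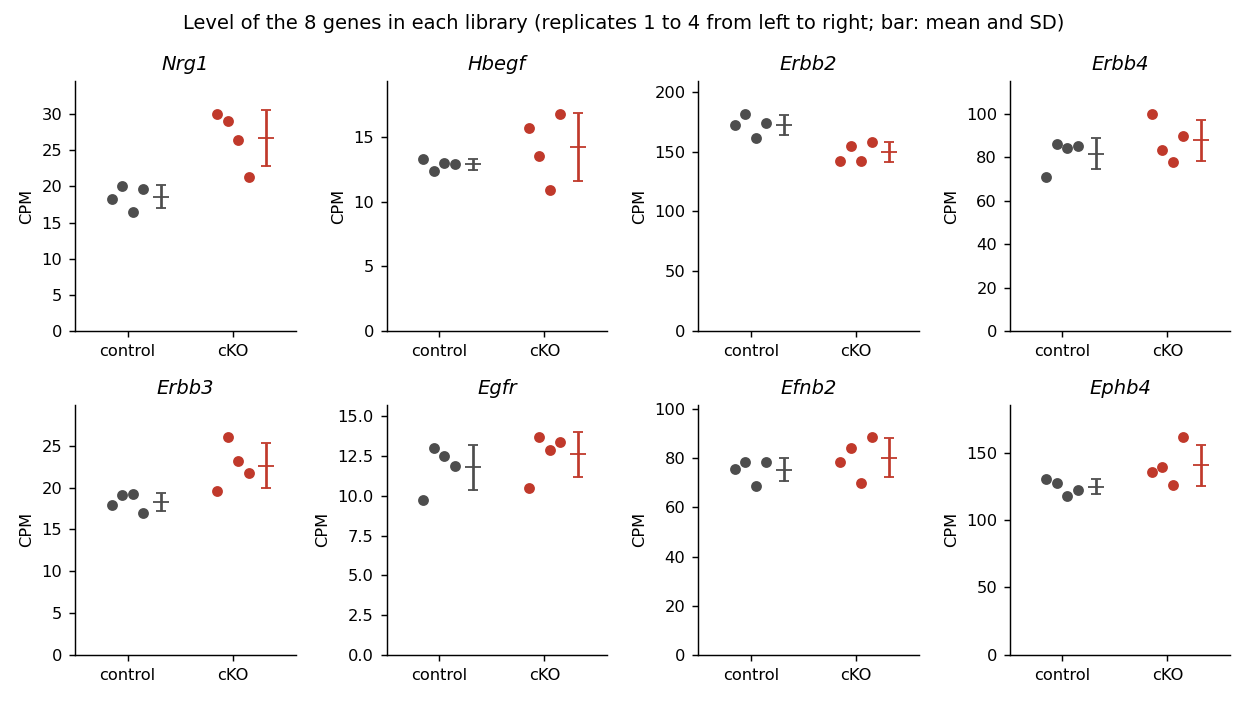
The level of each gene in CPM (vertical axis from 0) in the 4 control libraries (grey) and the 4 cKO libraries (red), with the mean and SD of each group beside the points. Nrg1 and Erbb3 have all cKO points above all control points, Erbb2 has them all below, and the groups overlap in the other 5 genes.

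The other ligand, Hbegf, is a membrane-anchored growth factor that binds EGFR and ErbB4. It was measured at 15.7, 13.5, 10.9 and 16.8 CPM in cKO libraries 1 to 4 and at 13.3, 12.3, 13.0 and 12.9 CPM in control libraries 1 to 4. The cKO libraries fell on both sides of the controls, with a log2 fold change of 0.14 (SE 0.113, edgeR adjusted p = 0.687). Its spread was also unequal, with an SD of 2.60 CPM in cKO and 0.412 CPM in control.

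Erbb2, the receptor that takes part in neuregulin signalling as the partner of ErbB3 or ErbB4, was the only member with a lower mean in cKO. It was measured at 142, 155, 142 and 158 CPM in cKO libraries 1 to 4, and at 172, 182, 161 and 174 CPM in control libraries 1 to 4. No cKO library reached the lowest control library, though the nearest values were cKO 4 and control 3. The means of 149 ± 8.27 and 172 ± 8.34 CPM (SD, n = 4) gave a log2 fold change of −0.21 (SE 0.0582). This did not pass the edgeR threshold (adjusted p = 0.111) and passed that of DESeq2 (adjusted p = 0.0224), and it was at most 0.373 under any alternative run. With each library left out in turn the log2 fold change stayed between −0.24 and −0.17.

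Erbb2 overlaps Mien1 on the opposite strand, and the strand setting of the counting is not given in the sources used here. Mien1 had 7.47% as many counts as Erbb2, with 11.9 ± 1.90 CPM in cKO and 12.2 ± 0.695 CPM in control and a log2 fold change of −0.04 (SE 0.109, edgeR adjusted p = 0.939). The part of Mien1 reads in the Erbb2 counts was not tested. For the other members, no overlapping gene had more than 2.15% of the member's counts.

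Erbb3, a neuregulin receptor known in cushion mesenchyme and in neural crest and its glia, was measured at 19.6, 26.0, 23.2 and 21.8 CPM in cKO libraries 1 to 4. The control libraries 1 to 4 held 17.9, 19.1, 19.2 and 17.0 CPM. Every cKO library was above every control library, with cKO 1 only just so. The log2 fold change was 0.31 (SE 0.0873), with an adjusted p of 0.118 in edgeR, 0.0299 in DESeq2 and 0.0351 in edgeR with no filter on low counts, so the call rests on the tool and the filter. This p was at most 0.360 under any alternative run. Markers of the cell types in which this receptor is known overlapped between the groups. The cushion mesenchyme and fibroblast list (10 of 10 genes tested, none called, median log2 fold change 0.07) had scores of −0.173 to 0.128 in cKO and −0.156 to 0.112 in control. The lowest score of each group was in the library with its lowest Erbb3 value, cKO 1 and control 4. In both groups the highest score and the highest Erbb3 value were in different libraries. The part of these cells in the Erbb3 level was not tested. The neural crest and glial list (6 of 8 genes tested, none called, 1 at 0 in every library) had scores of −0.045 to 0.377 in cKO and −0.317 to 0.202 in control. Only 2 of its genes had a mean of at least 1 CPM, so this score rests mostly on low counts and could miss a change. A score here is the mean log2 CPM of the genes of a list in a library, relative to the control mean.

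Erbb4, the main neuregulin receptor of cardiomyocytes, was measured at 99.9, 83.2, 77.9 and 89.9 CPM in cKO libraries 1 to 4 and at 70.8, 86.0, 84.3 and 85.1 CPM in control libraries 1 to 4. The groups overlapped, and control 1 lay well below the other controls. Its log2 fold change was 0.11 (SE 0.0791, edgeR adjusted p = 0.660) and was 0.04 to 0.16 with single libraries left out. Egfr, the receptor of EGF, TGF-alpha and HB-EGF, had 10.5 to 13.7 CPM in cKO and 9.76 to 13.0 CPM in control, with a log2 fold change of 0.10 (SE 0.109, edgeR adjusted p = 0.800). The lowest Egfr value of each group was in its library 1.

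**Figure D2:**
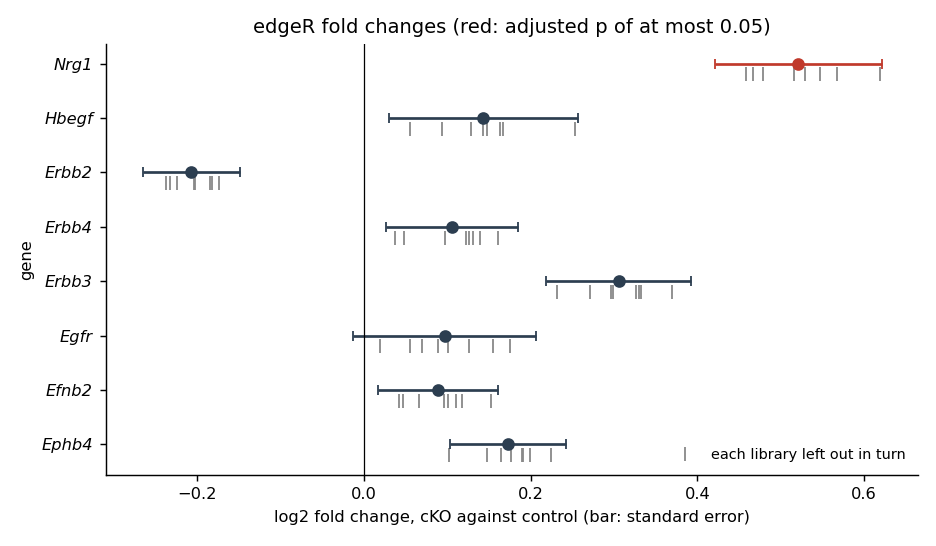
The edgeR log2 fold change of each gene, cKO against control (point), with its standard error (bar), and the fold changes with each of the 8 libraries left out (grey ticks). Nrg1, in red, passed an adjusted p of 0.05, and in all 8 genes the sign was the same in every such fit.

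Efnb2, the ephrin-B2 ligand, had 78.4, 84.0, 70 and 88.5 CPM in cKO libraries 1 to 4 and 75.8, 78.6, 68.6 and 78.6 CPM in control libraries 1 to 4. These ranges overlapped (log2 fold change 0.09, SE 0.0720, edgeR adjusted p = 0.695). Ephb4, its receptor, had 135, 139, 126 and 161 CPM in cKO libraries 1 to 4 and 130, 128, 118 and 122 CPM in control libraries 1 to 4. The libraries cKO 1, 2 and 4 were above all controls and cKO 3 was not. The log2 fold change was 0.17 (SE 0.0697), with an unadjusted p of 0.0249 and an edgeR adjusted p of 0.300.

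The deposited length-scaled abundances (TPM) allow levels to be compared between genes. In control libraries the order of mean TPM was Erbb2 (61.0), Ephb4 (51.0), Efnb2 (27.1), Erbb4 (12.1), Hbegf (9.41), Nrg1 (7.89), Erbb3 (5.32) and Egfr (2.10), and the ranges of all neighbours in this order were separate. In cKO libraries it was Ephb4 (58.4), Erbb2 (53.7), Efnb2 (29.7), Erbb4 (13.4), Nrg1 (11.1), Hbegf (10.6), Erbb3 (6.67) and Egfr (2.36). There the ranges of Ephb4 and Erbb2, of Erbb4 and Nrg1, and of Nrg1 and Hbegf overlapped, so those neighbours have no settled order. Erbb2 was thus the most abundant ErbB receptor in both groups, 5.06 ± 0.549 times Erbb4 in TPM in control and 4.04 ± 0.487 times in cKO (SD, n = 4).

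Taken as shares of the summed TPM of the 4 receptors, Erbb2 made up 77.9%, 75.8%, 73.5% and 75.7% in control libraries 1 to 4 and 68.5%, 70.9%, 70.9% and 71.7% in cKO libraries 1 to 4. Every cKO share was below every control share. The share of Erbb3 was 6.10% to 7.26% in control and 7.74% to 9.79% in cKO, and that of Egfr was 2.13% to 2.96% in control and 3.05% to 3.18% in cKO. The share of Erbb4 was 13.4% to 16.2% in control and 16.2% to 20.6% in cKO, and these ranges overlapped. The shares make up a whole, so a lower share of Erbb2 raises those of the others. Egfr TPM itself overlapped between the groups (2.24 to 2.44 in cKO, 1.64 to 2.44 in control), and Erbb3 TPM did not (5.80 to 7.78 and 4.87 to 5.73).

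**Figure D3:**
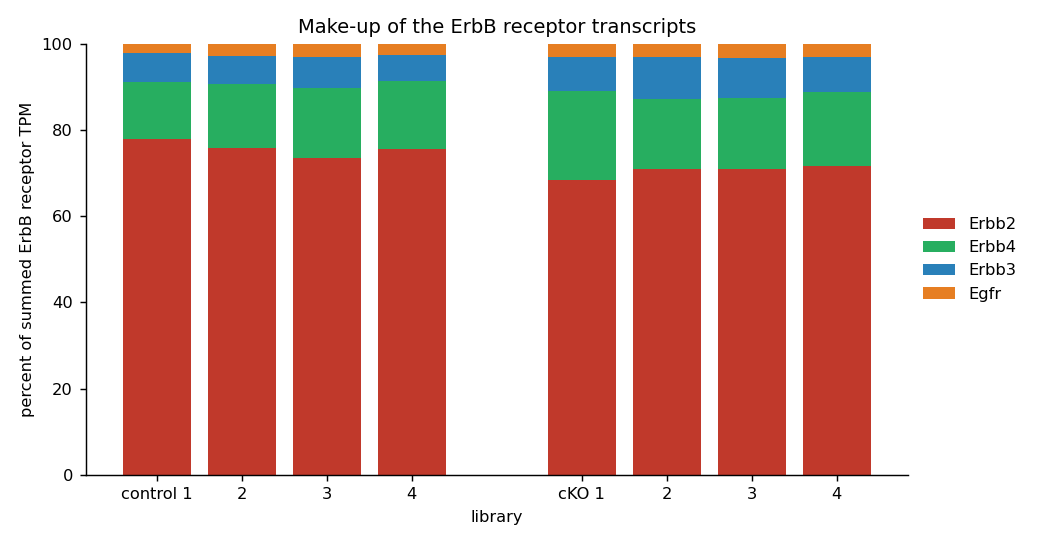
The percentage of the summed TPM of the 4 ErbB receptors held by each of them in every library, with controls on the left and cKO on the right. Erbb2 holds 73.5% to 77.9% in the controls and 68.5% to 71.7% in the cKO libraries, and the Erbb3 band is wider in each cKO library than in any control library.

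Ratios within a library do not depend on library size, and 5 were tested on the log2 CPM scale. Erbb3 relative to Erbb2 was higher in cKO by 0.51 (SD 0.155 in cKO and 0.120 in control), and Erbb2 relative to Erbb4 was lower by 0.31 (SD 0.177 and 0.146). Both separated the groups in all libraries, with exact permutation p = 0.0286, which is the smallest possible, and 0.0750 after Benjamini-Hochberg adjustment over the 21 within-library measures tested. The adjusted values therefore miss 0.05. With this smallest p they could reach 0.05 only if more of the 21 measures separated the groups, so the miss does not bear on these ratios alone. Egfr relative to Erbb2 (difference 0.30, exact p = 0.0571), Nrg1 relative to Hbegf (0.39, exact p = 0.143) and Efnb2 relative to Ephb4 (−0.08, exact p = 0.114) did not separate the groups in all libraries. In TPM, Egfr divided by Erbb2 did separate them (0.0429 to 0.0455 in cKO, 0.0273 to 0.0403 in control), so counts and TPM differ on this ratio.

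The endothelial and endocardial markers moved with the groups, and Nrg1, Efnb2 and Ephb4 are known in those cells. The score of the 29 markers, relative to the control mean, was 0.56, 0.22, 0.18 and 0.65 in cKO libraries 1 to 4 and 0.06, 0.04, −0.13 and 0.04 in control libraries 1 to 4. Of these genes, 10 were called higher and none lower by edgeR, and their median log2 fold change was 0.37. Their summed level was 3043 to 4014 CPM in cKO and 2451 to 2898 CPM in control. At the ends of the range were Cldn5, a tight junction protein (1.35, adjusted p = 0.0951), and Klf2, a flow-responsive factor (−0.17, adjusted p = 0.596).

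The cardiomyocyte score was −0.06, −0.11, −0.06 and −0.09 in cKO libraries 1 to 4 and between −0.03 and 0.04 in control libraries, a small and separate difference. The summed level of the list overlapped between the groups (50278 to 53719 CPM in cKO, 50461 to 55465 CPM in control). Among its 22 genes, 17 had a fold change under 0 and Casq2, the calsequestrin of cardiac muscle, was the only one called (−0.62, edgeR adjusted p = 0.0118). At the other end was Ttn, titin (0.20, adjusted p = 0.351). The median log2 fold change of the list was −0.05.

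Set against the endothelial score of the same library, Nrg1 differed by 0.13, 0.43, 0.33 and −0.45 in cKO libraries 1 to 4, each relative to the control mean. The libraries cKO 1, 2 and 3 lay above all controls and cKO 4, where the endothelial score was highest and Nrg1 lowest among cKO, lay below them. The mean difference was 0.11 (exact permutation p = 0.657) over all 8 libraries. With single libraries left out it ranged from 0.00 without cKO 2 (exact permutation p = 1) to 0.30 without cKO 4 (exact permutation p = 0.0286, not adjusted for the other measures), and without any of the other 6 libraries the exact p was at least 0.629.

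The other 7 members all had lower means in cKO relative to the endothelial score. That score was itself 0.40 higher in cKO (exact permutation p = 0.0286), so a gene with an unchanged level comes out lower by about as much. The difference was −0.61 (log2) for Erbb2, −0.32 for Efnb2 and −0.28 for Hbegf, and in these 3 the highest cKO value was below the lowest control value (exact permutation p = 0.0286, adjusted p = 0.0750 over the 21 measures). In CPM alone Efnb2 and Hbegf overlapped between the groups, so their separation here carries the shift of the score. Ephb4 had a difference of −0.24 (exact p = 0.0571), Erbb4 −0.30 (exact p = 0.0857), Egfr −0.31 (exact p = 0.200) and Erbb3 −0.10 (exact p = 0.60). The log2 fold changes of Efnb2 and Ephb4, 0.09 and 0.17, compare with a median of 0.37 over the endothelial markers.

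Relative to the cardiomyocyte score, Nrg1 had a difference of 0.60, Erbb3 of 0.38 and Ephb4 of 0.25, with no overlap between groups (exact permutation p = 0.0286, adjusted p = 0.0750). These values include the shift of that score (−0.08), and Ephb4 overlapped between the groups in CPM alone. Erbb2 had a difference of −0.12 (exact p = 0.114) and Erbb4 of 0.19 (exact p = 0.143), and their groups overlapped. Egfr (0.18, exact p = 0.229), Hbegf (0.21, exact p = 0.229) and Efnb2 (0.17, exact p = 0.143) overlapped too.

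**Figure D4:**
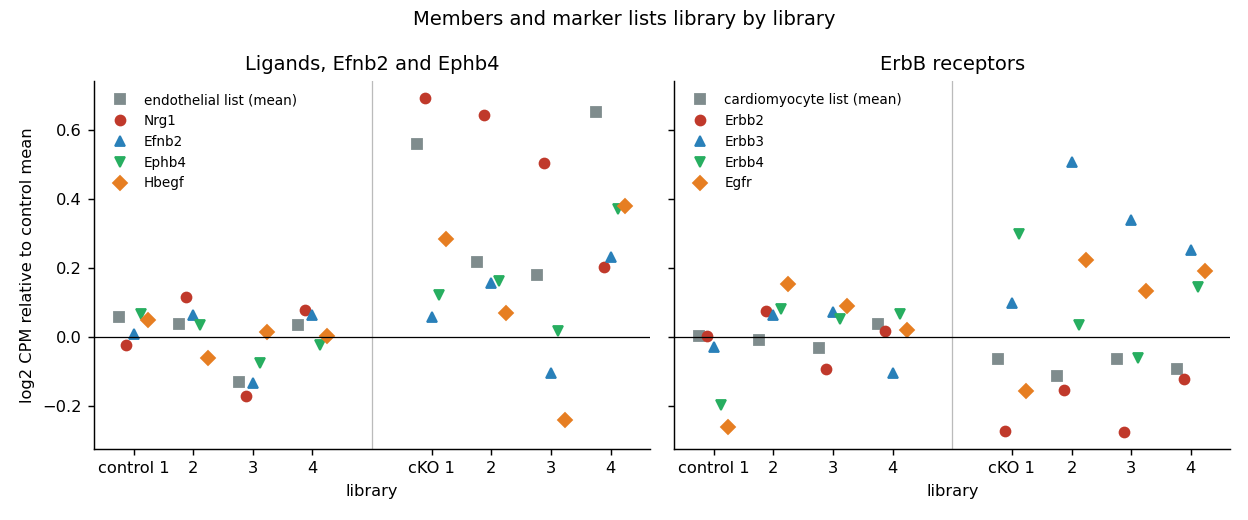
Log2 CPM relative to the control mean in each library, for the ligands, Efnb2 and Ephb4 beside the endothelial score (left) and for the ErbB receptors beside the cardiomyocyte score (right). Nrg1 is above the endothelial score in cKO 1, 2 and 3 and below it in cKO 4. Erbb2 is below the cardiomyocyte score in all 4 cKO libraries but also in control 1, 3 and 4, with overlap between the groups.

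Other cell types were looked at in the same way. The 12 macrophage markers had scores of 0.86 to 2.78 in cKO, highest in cKO 1, against −0.49 to 0.93 in control, with 2 genes called higher (C1qb and C1qc, complement subunits) and a summed level of 13.2 to 44.7 CPM in cKO and 7.77 to 13.8 CPM in control. All 12 had a fold change above 0, with a median log2 value of 2.05, and of 1.86 over the 6 with a mean of at least 1 CPM. The hepatic and gut epithelial list (12 of 13 genes tested, none called, median log2 fold change −0.76) overlapped between groups, with 1.16 in control 1. Only 6 of its genes had a mean of at least 1 CPM, and their median was −0.20. Its summed level overlapped too (78.9 to 139 CPM in cKO, 95.3 to 124 CPM in control). The 11 epicardial markers had none called and scores of −0.387 to 0.304 in cKO and −0.042 to 0.090 in control. The part of these levels in the results for the members was not tested.

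Among the 15 ligands and receptors of the whole ErbB family, 14 were tested and Nrg3 had no counts. Only Nrg1 was called by edgeR, and 5 genes had an unadjusted p under 0.05, against 3436 of 26820 genes tested. A fold change above 0 was seen in 9 of the 14, with a median of 0.12. Next to Nrg1 and Erbb3, the lowest fold changes at a mean of at least 1 CPM belonged to Erbb2 and to Tgfa, an EGFR ligand. Tgfa had 7.48, 7.60, 7.09 and 6.32 CPM in cKO libraries 1 to 4 and 8.46, 9.27, 8.74 and 9.18 CPM in control libraries 1 to 4. These did not overlap (log2 fold change −0.32, SE 0.104), but the edgeR adjusted p was 0.166.

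The 21 sheddases, adaptors and negative regulators of ErbB receptors had none called by edgeR, 5 with an unadjusted p under 0.05 and 2, Cbl and Errfi1, called by DESeq2. Over all genes tested, 3436 of 26820 had an unadjusted edgeR p under 0.05. DESeq2 called 5.46% of all genes it gave an adjusted p. The median log2 fold change of the 21 genes was 0.03. The ends of the range were Errfi1, a feedback inhibitor of ErbB kinases (0.23, adjusted p = 0.145), Cbl, a ubiquitin ligase for receptor tyrosine kinases (0.22, adjusted p = 0.125), Gab1, a docking protein (−0.16, adjusted p = 0.194), and Cblb, a relative of Cbl (−0.10, adjusted p = 0.545). No member of this list differed by as much as Nrg1.

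Genes that respond to receptor tyrosine kinase and ERK signalling lay mostly above 0: 18 of 19 had a positive fold change, with a median of 0.18, against 13361 of 26820 genes tested. Only Egr1, an immediate early transcription factor, was called. It had 29.9, 22.7, 21.2 and 21.6 CPM in cKO libraries 1 to 4 and 18.0, 17.1, 15.3 and 13.3 CPM in control libraries 1 to 4. No values overlapped (log2 fold change 0.58, SE 0.115, edgeR adjusted p = 0.0249), and 4 of the 8 fits without a library kept the call. Myc, the growth regulator, had the highest fold change of the list (0.81, SE 0.223, adjusted p = 0.104), with 34.7, 20.6, 15.9 and 44.6 CPM in cKO and 14.1 to 18.0 CPM in control, so cKO 3 was inside the control range. Phlda1 (0.03, adjusted p = 0.956) and Dusp5, an ERK phosphatase (−0.02, adjusted p = 0.969), were at the low end. The score of the list was highest in cKO 1 and cKO 4, as was the endothelial score, and overlapped between the groups (0.076 to 0.460 in cKO, −0.093 to 0.099 in control).

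Of the 22 ephrins and Eph receptors, 20 were tested, and Epha8 and Epha10 had no counts. Efnb3, a ligand of EphB receptors and a relative of Efnb2, was the only one called. It had 178, 186, 209 and 184 CPM in cKO libraries 1 to 4 and 237, 245, 240 and 236 CPM in control libraries 1 to 4. Every cKO library lay below every control library, with a wider spread in cKO than in control (189 ± 13.5 against 240 ± 3.77 CPM, SD, n = 4). Its log2 fold change was −0.34 (SE 0.0581, edgeR adjusted p = 0.0110), and all 8 fits without a library kept the call.

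The 20 tested ephrins and Eph receptors, Efnb3 included, spread around 0, with 10 above it and a median of −0.02. The highest fold changes at a mean of at least 1 CPM belonged to Epha2, a receptor for A-type ephrins (0.39, SE 0.106, adjusted p = 0.104), and Efna1, one of its ligands (0.30, SE 0.0910, adjusted p = 0.139). The lowest belonged to Ephb1 (−0.50, SE 0.229, adjusted p = 0.374), which had a mean of 1.04 CPM in cKO and 1.47 CPM in control.

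Among 20 other genes of ventricular trabeculation, Hey2 was called lower and Vcan higher. Hey2, a transcriptional repressor of the compact myocardium, had 71.1, 75.1, 79.2 and 83.0 CPM in cKO libraries 1 to 4 and 102, 108, 106 and 107 CPM in control libraries 1 to 4. The gap between the groups was wide (log2 fold change −0.46, SE 0.0578, edgeR adjusted p = 0.0017), and all 8 fits without a library kept the call. Vcan, a proteoglycan of the cardiac jelly between endocardium and myocardium, had 2210, 1994, 1728 and 2092 CPM in cKO and 1368, 1621, 1642 and 1613 CPM in control. Its call (log2 fold change 0.36, SE 0.0789, edgeR adjusted p = 0.0416) was kept in only 1 of the 8 fits without a library.

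Dll4, an endocardial Notch ligand, had 30.9, 22.8, 22.5 and 33.9 CPM in cKO libraries 1 to 4 and 20.5, 20.3, 13.7 and 17.7 CPM in control libraries 1 to 4. Its groups did not overlap, and it just missed the threshold (log2 fold change 0.61, SE 0.138, edgeR adjusted p = 0.0503), and it was highest in the 2 libraries with the highest endothelial score. Sema3e, a secreted ligand of plexin D1, had 0.79 (adjusted p = 0.106) at 2.81 CPM in cKO and 1.62 CPM in control. Cited1, a transcriptional coregulator, was at the low end beside Hey2 (−0.27, adjusted p = 0.178). The list had 13 of 20 fold changes above 0 and a median of 0.05. Its score was 0.042 to 0.161 in cKO and −0.023 to 0.022 in control, without overlap, and the endothelial score also separated the groups.

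**Figure D5:**
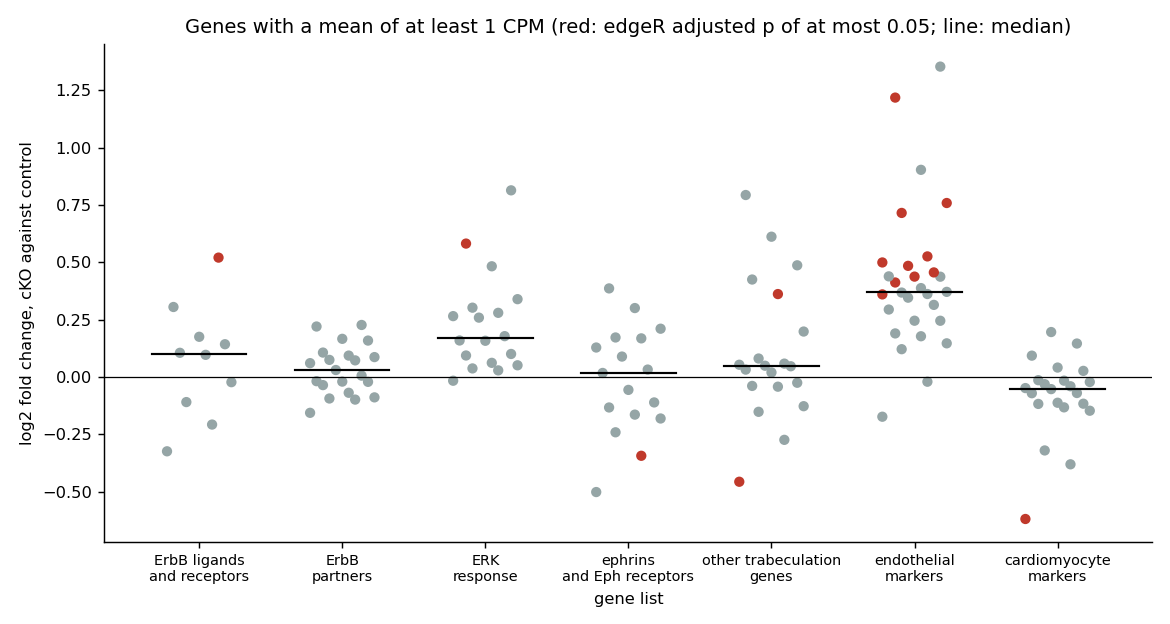
The edgeR log2 fold change, cKO against control, of each gene with a mean of at least 1 CPM in 5 pathway lists and 2 marker lists, with genes at an adjusted p of at most 0.05 in red and the median of each list as a line. The endothelial markers stand above 0 as a body, the ERK response genes lie mostly above 0, and the ErbB and ephrin lists spread on both sides of it.

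The genes most like each member over the 8 libraries were ranked by the root mean square (RMS) difference of log2 CPM relative to the control mean, over 14301 genes with a mean of at least 1 CPM. For Nrg1, Mecom, a zinc finger transcription factor, had an RMS of 0.117 and differed by 0.38 on the log2 scale (edgeR adjusted p = 0.0208). For Erbb2 they were Phlpp1 (RMS 0.0307) and Htra2 (0.0372), and for Erbb3 they were Sox5 (0.0949) and Creb5 (0.0967). The nearest genes of Erbb4 were Zeb2 and Kmt2e, those of Egfr were Clmn and C130036L24Rik, and those of Hbegf were Ttc28 and Ccdc157. Efnb2 was nearest to Adgra2 and Nfrkb, and Ephb4 to Mfsd10 and Mogs. The median RMS over all genes compared was 0.426 for Nrg1, 0.196 for Erbb2 and 0.288 for Erbb3, and a small value is more easily reached by a gene that varies little.

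The positions of the members in the deposited TPM table lay within 1000 bases of a RefSeq gene end on GRCm38.p6 for 7 of 8 members and of a GENCODE gene end on GRCm39 for 0 of 8, although the methods name GRCm39, so they are given as GRCm38. Nrg1 (ENSMUSG00000062991) lies at chr8:31814551-32884797 on the minus strand, Erbb2 (ENSMUSG00000062312) at chr11:98412470-98437716 on the plus strand and Erbb3 (ENSMUSG00000018166) at chr10:128567523-128589652 on the minus strand. Erbb4 (ENSMUSG00000062209) lies at chr1:68032186-69108059 on the minus strand and Egfr (ENSMUSG00000020122) at chr11:16752203-16918158 on the plus strand. Efnb2 (ENSMUSG00000001300) lies at chr8:8617434-8661242 on the minus strand and Ephb4 (ENSMUSG00000029710) at chr5:137350109-137374532 on the plus strand. These are the spans of whole genes, from which the reads of all exons were counted.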

How the data were processed

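Raw counts per gene symbol were deposited by the authors without normalization, beside a table of TPM values that the authors scaled to transcript length. The study's text names the nf-core/rnaseq pipeline and GRCm39. The submitters' processing notes list Trim Galore 0.6.7, HISAT2 2.2.1, StringTie 2.2.1 and featureCounts. The strand setting is not given in the sources used here, and read length is given as 150 bp in one label and 100 bp in another.

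Counts were tested with edgeR 4.0.16 in R 4.3.3 (quasi-likelihood F test, TMM, condition as the only term) on genes whose counts summed to 8 or more over the libraries. P-values were adjusted by the Benjamini-Hochberg method. Log2 CPM used a prior count of 2. Alternatives were DESeq2 1.42.0, its size factors, no filter, filterByExpr, a replicate block, limma 3.58.1 on log2 TPM with pseudocounts of 1 and 0.1, and each library left out. The scripts were tested on simulated data. Same-numbered libraries had deviations that correlated at −0.19, −0.03, 0.01 and −0.14 over 14302 genes, so the numbers were not taken as pairs. No 2 libraries of the same group were duplicates (chi-square per degree of freedom 9.16 to 28.8), and pairs across the groups were not compared. Within-library measures used exact two-sided permutation tests over all 70 groupings.

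The members and gene lists were chosen with earlier results of these data known. The text names the 8 members, Pkn2, the genes of each pathway list that passed an adjusted p of 0.05, the 2 highest and 2 lowest fold changes of each such list at a mean of at least 1 CPM, marker genes at the ends of their range, and the 2 genes most like each member. Results for 1 gene are not reported here. Actc1, Npr3, C1qb and C1qc were named as examples and Mien1 for its overlap after their values were seen. Fold changes are relative to TMM scaling. Precision rests on 4 libraries a group, and p-values cover the spread between these libraries.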

Additional observations from a re-analysis of the deposited data

Results flagged for a closer look

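In 72 groups of 4 values, of members, marker scores and within-library measures, 3 had an end value far from the other 3 by Dixon's criterion, where chance gives about 1 in 20. Erbb4 in control 1 was 70.8 CPM against 84.3 to 86.0 CPM in the other controls. The endothelial score of control 3 was −0.131 against 0.0357 to 0.0569 in the other controls. The cushion mesenchyme score of cKO 1 was −0.173 against 0.0796 to 0.128 in the other cKO libraries.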

How the results depend on the processing

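Every member kept the sign of its fold change under every alternative run, and the number of calls depended on the tool and filter. DESeq2 called 3 of the 8 members, no filter 2, limma on log2 TPM 0 with either pseudocount (Nrg1 adjusted p = 0.264 and 0.262), and single libraries left out 0 to 1. For ErbB ligands and receptors, 1 call became 4 with DESeq2, 3 with no filter and 0 with limma (0 to 1 with libraries left out). For ErbB partners, 0 became 2 and 1 with DESeq2 and no filter (0 to 1). For the ERK response list, 1 became 2, 4 and 0 with DESeq2, no filter and limma (0 to 3), and for ephrins and Eph receptors 1 became 4, 4 and 0 (1 to 4). For trabeculation genes, 2 became 5, 7 and 0 (1 to 6), and for endothelial markers 10 became 21, 23 and 0, and 6 with filterByExpr (0 to 19). The share of all genes called was worked out only for the main edgeR fit (0.858%) and for DESeq2 (5.46%). Counts under the other settings, the replicate block included, therefore cannot be set against a share over all genes.

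The replicate block gave 3 calls in the ERK response list, 2 among ephrins and Eph receptors, 5 among trabeculation genes and 17 among endothelial markers, with 1 member still called (Nrg1, adjusted p = 0.0119). The labels do not say what a number shares, so this is no paired result.

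Of the measures relative to marker lists, 6 reached an exact p of at most 0.05, 1 to 8 with libraries left out, and 4 to 7 with log2 TPM or the list median. Of the ratios 2 did, 1 to 2 with libraries left out, and 3 with log2 TPM at either pseudocount. With 3 against 4 libraries the smallest exact p is 0.0286 or 0.0571, which limits the counts with libraries left out. Erbb3 relative to the endothelial list turned from −0.10 to 0.0169 without cKO 1, and lay between −0.234 and 0.0169 with single libraries left out. In cKO, 4 of the 8 members held the same rank of mean TPM as in control. The causes of these changes were not tested.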
